A study of Macaca mulatta with 304 samples.

Results

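The 10 genes described here are interferon-induced genes of the IFIT family (IFIT1, IFIT2, IFIT3 and IFIT5), the IFI genes IFI44, IFI44L, IFI27 and IFI6, and the neighbours CMPK2 and RSAD2. They were chosen by symbol from the 21070 genes of the count table, and all 10 were among the 13751 genes with enough counts to be tested. The RNA of whole blood of 28 rhesus macaques (Macaca mulatta) was sequenced after depletion of rRNA. The upper thorax of every animal was irradiated, with 9.8 Gy in 12 animals (lower dose, LD) or 10.7 Gy in 16 animals (higher dose, HD), with 14 males and 14 females in all. Control samples were drawn 2 days before irradiation from 24 of the animals, and no animal was left unirradiated, so time and irradiation cannot be told apart. The 280 irradiated samples consist of 272 from 15 scheduled days between Day 3 and Day 270 and 8 unscheduled draws. Per the methods, all animals were given tramadol or buprenorphine for some weeks that began after the Day 3 draw and ended before the Day 30 draw, and dexamethasone if their breathing became fast.

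Type I interferons bind a receptor that activates a complex of transcription factors, and this complex binds a DNA element called the ISRE in front of its target genes. The products of these targets block viruses inside the cell. IFIT proteins bind foreign RNA or hinder its translation, RSAD2 (viperin) makes a nucleotide that stops viral polymerases, and CMPK2 is a nucleotide kinase encoded next to it. IFI6 and IFI27 are small membrane proteins of the endoplasmic reticulum and mitochondria, and IFI44 and IFI44L are related cytoplasmic proteins.

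On the Mmul_10 build the 4 IFIT genes lay close together on the plus strand of chromosome 9, in the order IFIT2 (chr9:89563460-89570421), IFIT3 (chr9:89585075-89596574), IFIT1 (chr9:89628584-89669645) and IFIT5 (chr9:89672665-89679799), within 116.34 kb that hold 2 other coding gene models. RSAD2 (chr13:101877710-101901657, minus strand) and CMPK2 (chr13:101909431-101926277, plus strand) had no other coding gene between them. IFI44 (chr1:145749495-145763682) and IFI44L (chr1:145772273-145794334) were both on the minus strand of chromosome 1. IFI6 (chr1:197051586-197057742) and IFI27 (chr7:156289053-156295024) lay apart from the others on the plus strand. Of the exon bases of IFIT1, 4.38% are shared with overlapping uncharacterised gene models on the same strand, so a small part of its reads could be split or discarded by the counting. The core of the ISRE, written as GAAA, any 2 bases and GAAA again and searched on both strands in the window of 250 bases before to 50 bases after each gene's annotated start, was present in 5 of the 10 genes and in 3.50% of all 21107 promoters. With every annotated transcript start counted, it was present in 6 of 10 genes, against 6.23% of genes. The shorter GAS core (TTCNNNGAA), which interferon gamma uses, was in 2 of 10 promoters against 6.99% of all. The same ISRE core was in 13 of 35 other type I interferon targets and in 1 of 12 interferon gamma targets. Every stretch found at an annotated start of these 6 genes is shown, because its core is the element that the interferon-activated complex binds. Capitals mark the core or its reverse complement, and each stretch is written 5′ to 3′ on the strand of the gene, with 15 bases on either side, and read from the RefSeq Mmul_10 assembly:
IFIT2, chr9:89563402-89563454, plus strand: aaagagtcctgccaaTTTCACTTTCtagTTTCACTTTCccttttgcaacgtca
IFIT1, second start, chr9:89643323-89643413, plus strand: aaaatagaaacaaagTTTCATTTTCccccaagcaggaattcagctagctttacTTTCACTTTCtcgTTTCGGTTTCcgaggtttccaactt
IFIT1, last start, chr9:89657893-89657932, plus strand: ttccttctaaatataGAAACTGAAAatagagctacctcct
IFI44, chr1:145763683-145763722, minus strand: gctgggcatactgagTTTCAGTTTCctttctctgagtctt
IFI27, chr7:156288931-156288983, plus strand: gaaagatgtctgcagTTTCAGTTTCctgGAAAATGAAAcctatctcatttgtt
IFI6, chr1:197051421-197051562, plus strand: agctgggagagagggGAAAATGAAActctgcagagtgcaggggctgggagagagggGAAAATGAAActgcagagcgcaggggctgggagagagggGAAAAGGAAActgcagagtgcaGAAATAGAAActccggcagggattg
RSAD2, chr13:101901800-101901839, minus strand: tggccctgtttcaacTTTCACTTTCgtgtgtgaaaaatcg
The core of IFIT2 nearest the start began 30 bases before it, and IFI6 carried 4 cores. IFIT3, IFIT5, IFI44L and CMPK2 had no match at any annotated start, which says only that these letters are not there.

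The sum of counts in a library lay between 2840219 and 23638161 (median 8227563). Levels are given in CPM, which are counts scaled to one common library size, with upper quartile scaling, and changes as log2 fold changes with their standard error (SE). The library numbers in the sample labels fall into a lower range in 120 samples and a higher range in 34 samples, called series A and B here, and the other 150 samples, called series C, all have the number 0. All 24 animals had their draws up to Day 15 in the series of their own control, 16 did on Day 21, 4 on Day 30 and Day 40, and none from Day 120 on, so that later changes and the series cannot be told apart except where stated. The library of animal B1502 on Day 150 stood apart, with 2840219 counts and 11695 genes detected, against 13931 in the next lowest sample and a median of 16126. No pair of samples held identical counts.

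Before irradiation every gene had at least 8 counts in each of the 24 control samples, and their levels differed widely between animals. Per kilobase of exon, IFI6 had the highest median level (79.3 CPM per kb), followed by IFIT3 (25.1), IFIT2 (19.2) and IFIT1 (19.1), and IFI44L had the lowest (0.858). The ranges of the control samples overlapped between neighbours in this order. In CPM, IFI6 ranged from 27.4 to 161 (median 75.7) and IFIT1 from 20.3 to 118.3 (median 42.7). The widest spread was that of IFI27, whose highest control sample was 29.2 times its lowest, and the narrowest that of IFIT5, with 4.31 times.

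Whether the genes changed after irradiation was asked by comparing each scheduled day with the same animals' controls. From Day 3 to Day 21 nearly all of the 10 genes rose. By edgeR's quasi-likelihood test with Benjamini-Hochberg adjustment over 13751 genes, a gene was called at an adjusted p of 0.05 and a fold of 1.5. Day 3 had higher calls for 9 of 10 genes (6.89% of all tested genes), Day 6 for 10 (6.04%), Day 9 for 9 (5.15%), and Day 15 and Day 21 for all 10 (5.11% and 7.65%), and none was called lower. The median log2 fold change of the 10 genes on these days was 1.03, 1.10, 1.18, 1.07 and 1.197, while that of all tested genes lay between -0.06 and 0.00. In whole blood, RNA of fewer or more cells of a type cannot be told apart from less or more RNA per cell.

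**Figure D1:**
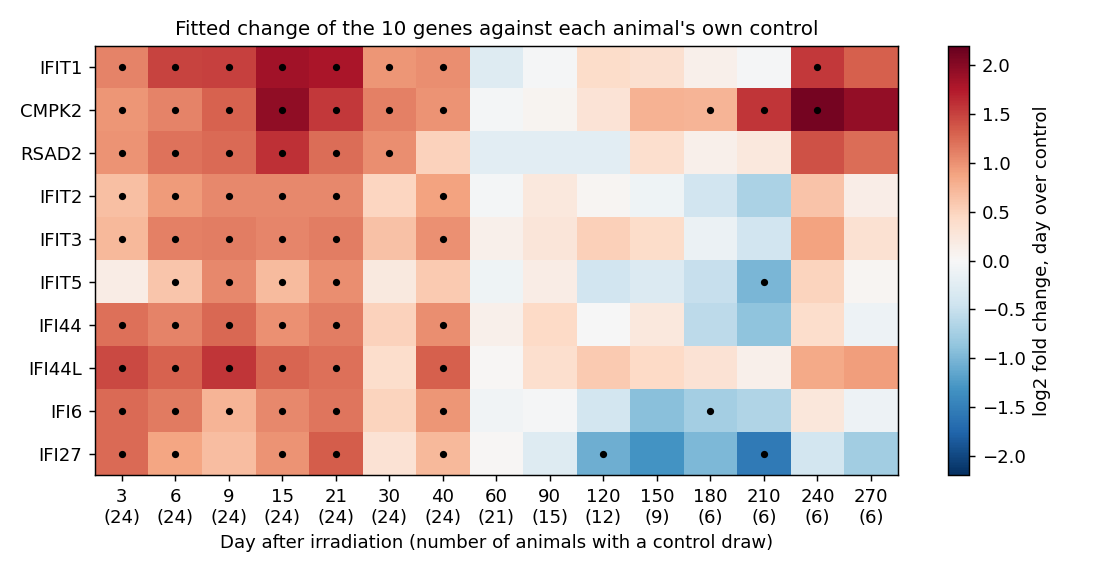
Fitted log2 fold change of each gene (rows) on each scheduled day (columns) against the same animals' control, with dots where the gene passed an adjusted p of 0.05 and a fold of 1.5. All 10 genes are red on Day 6, 15 and 21 and lie between -0.28 and 0.11 on Day 60. From Day 120 on the rows diverge, with CMPK2 red and IFI27 blue on Day 210.

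IFIT1 had the strongest rise of the IFIT genes. Its controls had a lowest, median and highest level of 20.3, 42.7 and 118.3 CPM, its Day 15 samples 34.2, 135.3 and 470.4 CPM and its Day 21 samples, which include 4 animals without a control, 29.0, 185 and 682 CPM. The ranges overlapped, but each of the 24 animals with a control was above it on both days. The log2 fold change was 1.84 (SE 0.17) on Day 15 and 1.79 (SE 0.16) on Day 21, with 24 animals on each day. CMPK2 moved in the same way. Its controls had 2.81, 10.4 and 40.1 CPM and its Day 15 samples 7.33, 40.5 and 183 CPM, which is a log2 fold change of 1.94 (SE 0.18) and was seen in 24 of 24 animals. RSAD2 went from 2.76, 9.41 and 20.9 CPM in controls to 7.57, 22.8 and 176 CPM on Day 15 (log2 fold change 1.61, SE 0.20, higher in 23 of 24 animals).

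IFI44L and IFI44, with IFI6 and IFI27, had the largest changes on Day 3. IFI44L controls had 1.10, 2.07 and 21.6 CPM, and its Day 3 samples had 1.80, 6.40 and 54.2 CPM. The log2 fold change of IFI44L was 1.45 (SE 0.25) on Day 3 and 1.57 (SE 0.36) on Day 9, and 23 of 24 animals were higher on Day 3. IFI6 had its largest change on Day 3, at 74.97, 157 and 533 CPM, with a log2 fold change of 1.253 (SE 0.18). IFI27 had 0.671, 2.97 and 19.6 CPM in controls and 3.25, 9.15 and 37.6 CPM in the 28 samples of Day 21 (log2 fold change 1.33, SE 0.19, higher in 23 of 24 animals). On Day 9 IFI27 had a value of 0.69 (SE 0.29) and did not pass, with an adjusted p of 0.05003 and 14 of 24 animals higher.

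IFIT5 was the only gene of the 10 not called on Day 3. It had 8.12, 19.2 and 34.96 CPM in controls and 9.20, 19.97 and 51.97 CPM on Day 3, where its log2 fold change of 0.17 (SE 0.14) was within the spread between animals. It passed on Day 6 (0.61, SE 0.20), and in the 28 samples of Day 9 it had 12.8, 38.6 and 234.1 CPM, with a value of 1.05 (SE 0.18) and 22 of 24 animals higher. IFIT2 and IFIT3 had values of 0.66 (SE 0.16) and 0.72 (SE 0.17) on Day 3 and of 1.06 (SE 0.18) and 1.12 (SE 0.18) on Day 21.

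Fewer genes passed on Day 30 than on Day 21 or Day 40. On Day 30 only IFIT1, CMPK2 and RSAD2 were called higher (3 of 10 genes, 4.57% of all genes), and the median change of the 10 genes was 0.50. Between Day 21 and Day 30 a fall was called for 4 genes (2.32% of all genes fell), with log2 fold changes of -0.67 for IFIT1, -0.66 for IFIT5, -0.90 for IFI27 and -0.60 for IFI6. On Day 40, 8 of 10 genes were called higher than control (4.07% of all genes), with a median of 0.98, and IFI44L rose from Day 30 by a log2 fold change of 1.01 (SE 0.37), the only gene of the 10 called in that step (1.81% of all genes). All 28 Day 30 samples were of series C, but only 8 of the 28 Day 21 samples were. In most animals the fall from Day 21 to Day 30 therefore cannot be told apart from the series. In the 4 animals whose control was also of series C, all of them HD, 5 of 10 genes were called higher on Day 30 (4.6% of all genes) and 1 on Day 40 (3.45%). The log2 fold changes of the 10 genes in these animals were 1.213 to 2.202 on Day 30 and 1.02 to 2.32 on Day 40. From Day 21 to Day 30 the median change over the 10 genes rose in B2005 and B2504 and fell in B2003 and B2503. B2002, B2502 and B2508 had both of these draws in series C, though not their controls. Their median change fell as well, from 0.95 to -0.14, from 0.91 to 0.32 and from 1.45 to 0.56. On Day 60 and Day 90 no gene of the 10 was called higher (2.31% and 3.87% of all genes were) or lower by edgeR, 0 had an unadjusted p under 0.05, and DESeq2 called 0. Within series C and over 20 animals, Day 60 was lower than Day 30 for IFIT1 (log2 fold change -1.198), CMPK2 (-1.09) and RSAD2 (-1.09), which is 3 of 10 genes (2.83% of all genes).

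Few steps between neighbouring days up to Day 21 passed. None of the 10 genes was called between Day 3 and 6, Day 6 and 9 or Day 15 and 21. Of all genes, 2.55%, 5.02% and 1.27% were called in these steps. An unadjusted p under 0.05 was found for 2, 1 and 1 of the 10. It was found for 5021, 7365 and 4241 of the 13751 tested genes, a larger share in each step than among the 10. From Day 6 to 9 the 1 of the 10 was IFIT5 (log2 fold change 0.47, SE 0.18). Its adjusted p by edgeR's test was 0.0246, and only the fold limit was missed. DESeq2 was not run on these steps. CMPK2 alone was called between Day 9 and Day 15, where it rose (log2 fold change 0.61, SE 0.22, 2.87% of all genes). In that step 5087 of the 13751 tested genes had an unadjusted p under 0.05. Among the 10 genes 4 did, which is near the share of all genes. Besides CMPK2 these were IFIT5 (-0.43), IFI44 (-0.60) and IFI44L (-0.71), which were lower and not called. A test of any difference among the 7 days from Day 3 to Day 40 passed for 6 of 10 genes (IFIT1, IFIT5, IFI44L, IFI27, CMPK2 and RSAD2) and for 93.3% of all tested genes. IFIT2, IFIT3, IFI44 and IFI6 had adjusted p-values of 0.0827 to 0.219 in that test.

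**Figure D2:**
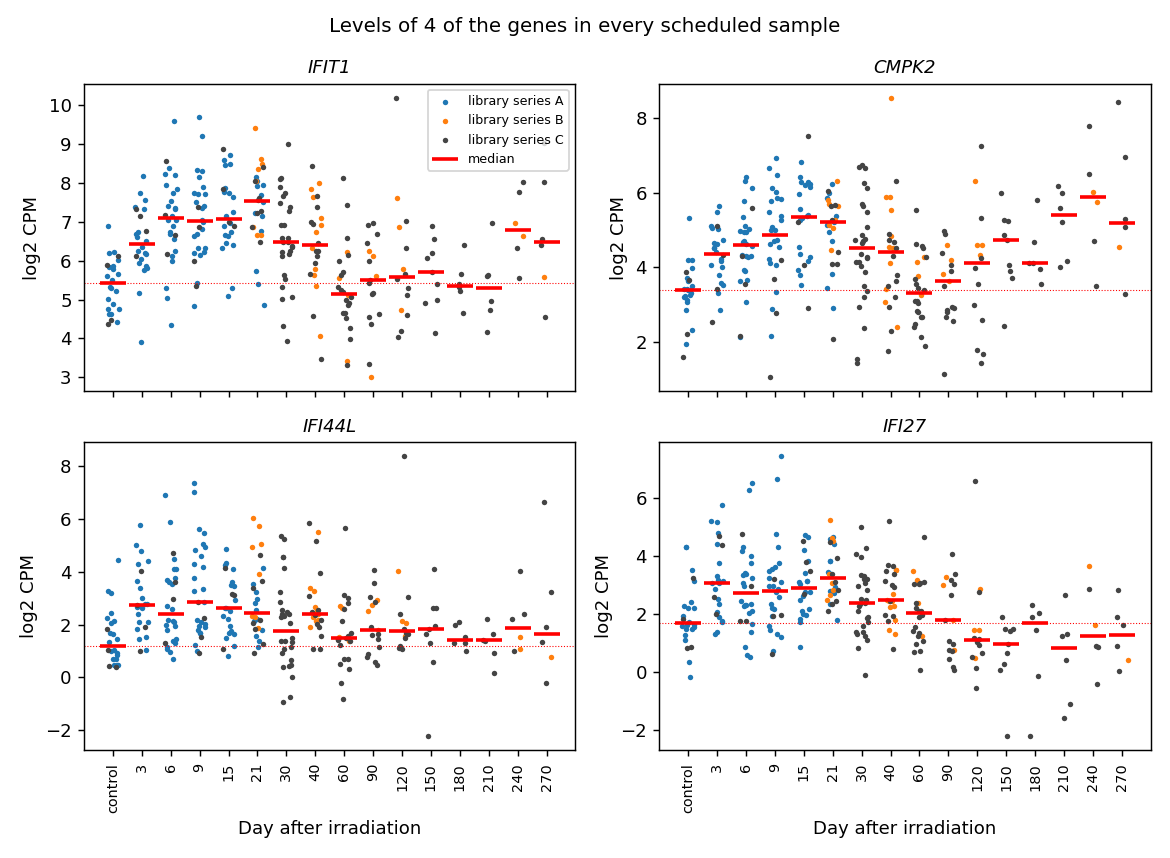
Level of 4 of the genes in every control and scheduled sample, in log2 CPM with a prior count of 2, colored by library series, with red bars for the median of each day and a dotted line at the control median. IFIT1, CMPK2, IFI44L and IFI27 have medians above the control line from Day 3 to Day 40, and 1 sample on Day 120 lies far above the others for IFIT1, IFI44L and IFI27.

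The rise was uneven between animals. The median change over the 10 genes ran from -0.02 to 3.35 log2 units on Day 3, from -0.57 to 4.63 on Day 9 and from -0.19 to 3.00 on Day 21. All 10 genes were above the animal's own control in 10 of 24 animals on Day 3, in 14 on Day 15, in 18 on Day 21 and in 6 on Day 30. The day with the largest median change differed as well, with 5 animals each on Day 9, 15 and 21, and 2 or 3 animals on each of the other days up to Day 40. The largest change any animal reached by Day 40 had a median of 1.98 log2 units over the 24 animals and was smallest in B2001 (0.551).

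Single draws stood far above the rest, on days from Day 6 to Day 270. The highest levels of the 10 genes together were in HD female B2507 on Day 120, with 3825 CPM of IFIT2, 3119 of IFIT3, 1176 of IFIT1 and 2116 of IFI6. This animal had no control and entered no comparison with controls, but it is among the animals compared with Day 30 within series C. The next highest was LD male B1003 on Day 9, with 2349 CPM of IFIT2, 2459 of IFI6 and 172 of IFI27. HD female B2502 followed on Day 270, with 961 CPM of IFIT2 and 347 of CMPK2 but only 6.90 of IFI27. Of the 8 highest samples, 3 were of B2507.

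**Figure D3:**
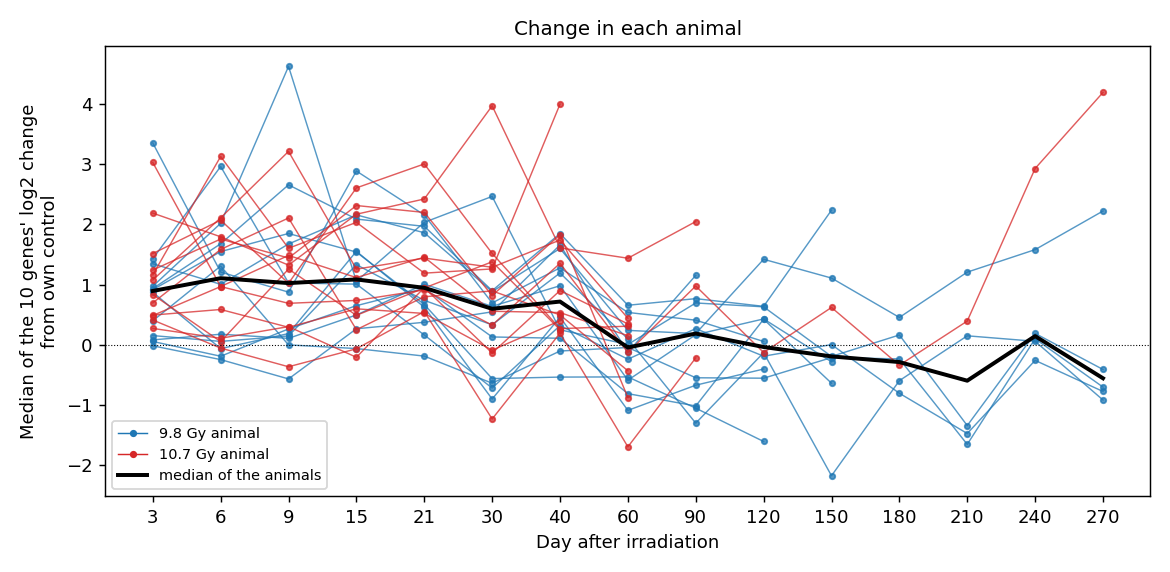
Median log2 change of the 10 genes from the animal's own control (vertical axis) on each scheduled day (horizontal axis, evenly spaced), with a line per animal in blue for 9.8 Gy and red for 10.7 Gy and the median of the animals in black. The black line stays between 0.60 and 1.10 up to Day 40 and between -0.60 and 0.18 from Day 60 on, while single animals reach 4.63 on Day 9 and 4.19 on Day 270.

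Whether the response differed by dose or by sex was tested on counts summed over Day 3 to 21 in 12 animals per group. All 10 genes rose in LD animals (5.85% of all genes), in HD animals (5.78%), in males (5.32%) and in females (6.07%), with median log2 fold changes of 1.19, 1.37, 1.24 and 1.32. The dose difference was called for 0 of 10 genes by edgeR (0% of all genes), with 0 at an unadjusted p under 0.05, and 0 by DESeq2. IFI44 had the largest difference, 0.32 higher in HD animals on the log2 scale (SE 0.42, 95% interval -0.55 to 1.197). IFIT1 had the smallest, with -0.01 (95% interval -0.64 to 0.61), an interval that reaches past 1.5 times in both directions. Sex differences were called for 0 of 10 genes (0% of all genes), again with 0 at an unadjusted p under 0.05 and 0 by DESeq2. CMPK2 was 0.39 higher in females (SE 0.24, 95% interval -0.10 to 0.89) and IFI44L 0.44 higher (SE 0.49, 95% interval -0.59 to 1.46). A joint test of a dose difference on any day from Day 3 to 40 passed for 0 of 10 genes, of which 0 had an unadjusted p under 0.05, and for 5.88% of all genes, and the smallest adjusted p of the 10 was 0.562.

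**Figure D4:**
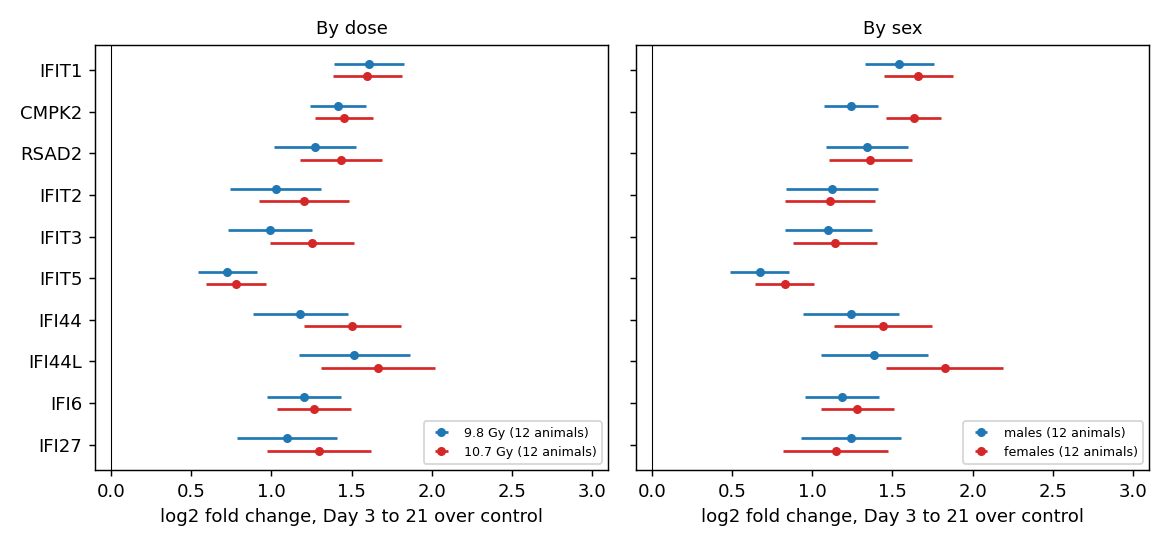
Log2 fold change of each gene over Day 3 to 21 against control, from summed counts, by dose (left) and by sex (right), with bars of 1 SE and 12 animals per point. Every point lies above 0, and the bars of the paired groups overlap for all genes except CMPK2 by sex.

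The 10 genes were not equally alike in how they varied. Pearson's r of log2 CPM with each animal's mean removed, over all samples, which share animals and library series, ranged from 0.453 (IFIT5 and CMPK2) to 0.917 (IFIT2 and IFI44), with a median of 0.707 over the pairs. IFIT1, CMPK2 and RSAD2 had values of 0.816 to 0.858 with each other. IFIT2, IFIT3, IFI44, IFI44L and IFI6 had values of 0.806 to 0.917 with each other, and IFI27 was closest to IFI6 (0.854). CMPK2 was the least like the others, with a median r of 0.569. IFIT1 had a higher r with RSAD2 on another chromosome (0.858) than with IFIT2 in its own cluster (0.695).

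The genes also differed in how they moved with markers of red blood cell precursors. The 9 erythroid markers, among them the globin gene HBB and the heme synthesis gene ALAS2, were all tested, and HBB was at 0 in no sample. Their summed level ranged from 1851 to 11800 CPM in controls (median 6444), from 9388 to 87172 CPM on Day 15 (median 25156) and from 6883 to 68194 CPM on Day 21 (median 20308). All 9 were called higher on each of Day 3, 6, 9, 15 and 21. Over all samples, r with the mean erythroid score was 0.789 for IFIT1, 0.740 for CMPK2 and 0.668 for RSAD2, above 96.8% or more of all tested genes. The other 7 genes had values of 0.203 (IFI44) to 0.407 (IFI6). For the mean of the 10 genes, r was 0.510 with erythroid markers and between -0.169 and 0.165 with the lists for neutrophils, monocytes, plasmacytoid dendritic cells, T cells, NK cells, B cells, platelets and glucocorticoid-responsive genes.

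With the erythroid sum added to the fit as a covariate, an alternative chosen after the data were seen, the number of genes called changed among the 10 and over all genes. From Day 3 to Day 40 the higher calls of the 7 days were then 3, 0, 3, 0, 1, 0 and 9 of 10 genes. Of all tested genes 4.65%, 0.524%, 13.7%, 0.727%, 1.87%, 3.43% and 3.66% were called higher, which on Day 6 is 72 genes in place of 830 and on Day 15 100 genes in place of 703. The median log2 fold change of the 10 genes on these days was 0.52, 0.99, 1.03, 0.32, 1.01, 0.43 and 0.93. These medians lay farthest below those without the covariate on Day 3 and Day 15. On Day 3 the log2 fold change fell to 0.50 for IFIT1, 0.50 for CMPK2 and 0.38 for RSAD2, while IFI44 (1.16), IFI44L (1.201) and IFI6 (1.13) still passed. On Day 21 it was 0.59 for IFIT1 and 0.24 for RSAD2, and 1.54 (SE 0.37) for IFIT5, which passed. IFI44 (1.56, SE 0.58), IFI6 (1.27, SE 0.42), IFIT3 (1.03, SE 0.51) and IFIT2 (0.99, SE 0.51) did not pass on that day, with adjusted p-values of 0.0707 to 0.208. The erythroid sum was above control in 24 of 24 animals on Day 6, 15, 21 and 30, and the SE of IFIT1 on Day 21 grew from 0.16 to 0.39 with the covariate. On Day 40, when the erythroid sum was above control in 14 of 24 animals with a median change of 0.25 (highest 7.47), 9 genes passed with values such as 1.52 (SE 0.28) for IFI44L and 1.07 (SE 0.22) for IFIT2. The part of red cell precursors in the rise of each gene was not tested beyond this fit.

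**Figure D5:**
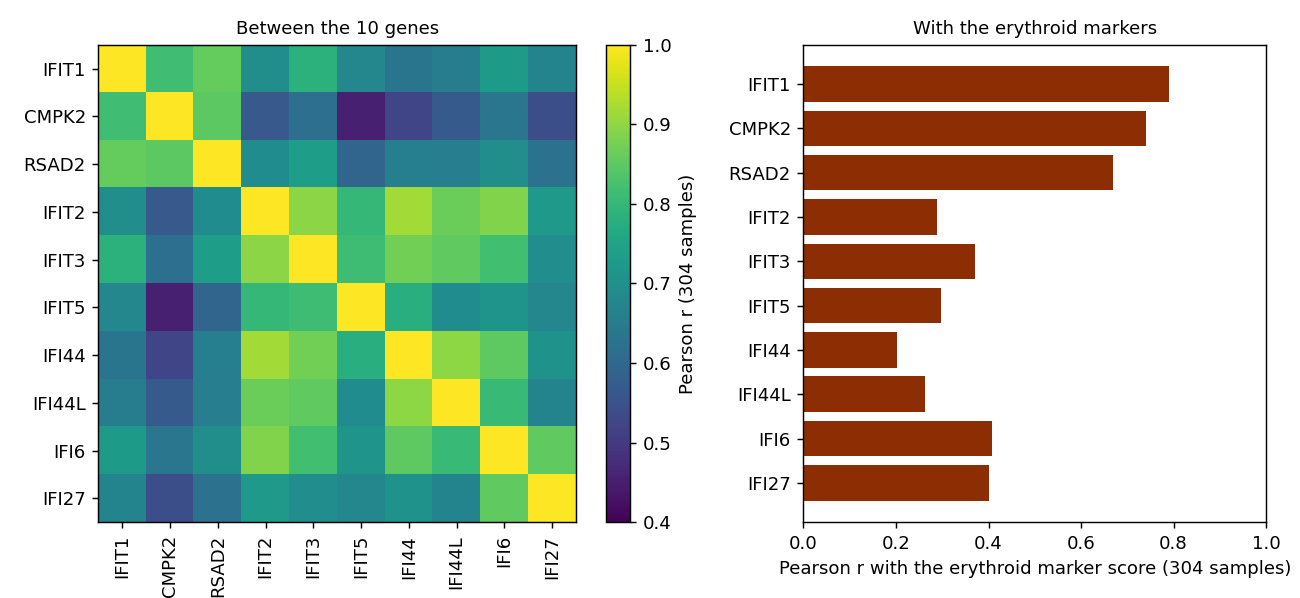
Pearson's r of log2 CPM, with each animal's mean removed, over all samples, between the 10 genes (left, color) and of each gene with the mean erythroid marker score (right, bars from 0). IFIT1, CMPK2 and RSAD2 form a block of high values and have the 3 longest bars, at 0.789, 0.740 and 0.668.

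From Day 120 on the groups were of 12 animals or fewer, and the genes called differed in direction. On Day 180 and Day 210 the counts called among the 10 were near the shares of all genes. On Day 180 CMPK2 was called higher (0.74, SE 0.20) and IFI6 lower (-0.76, SE 0.23), which is 1 of 10 genes each, against 8.81% higher and 9.86% lower of all genes. CMPK2 lost this call without B1503 (0.63) or B2502 (0.56), and IFI6 without B1004, B1502, B1505 or B2502 (-0.76 to -0.60). On Day 210 CMPK2 was higher (12.8% of all genes), and IFIT5 and IFI27 were lower (16.9%). The 6 animals of Day 210 had 16.0, 42.5 and 71.9 CPM of CMPK2 (lowest, median and highest) against a median of 12.01 CPM in their controls. This was a log2 fold change of 1.58 (SE 0.24), higher in 6 of 6 animals and still called with any 1 of them left out. IFIT5 had 5.33, 9.15 and 11.5 CPM on that day against a control median of 16.1 CPM, with a value of -1.003 (SE 0.22) and 0 of 6 animals higher. IFI27 had 0.120, 1.63 and 6.10 CPM against a control median of 2.73 CPM, with a value of -1.56 (SE 0.50), and lost its call without B1003, B1004, B1505 or B2502, with values of -1.33, -1.46, -1.51 and -1.33. Without B1502, 4 of the 10 genes were called lower on Day 210 (15.7% of all genes), and without B1503, 3 were on Day 180 (7.6%). The erythroid sum on Day 210 ranged from 6191 to 27986 CPM (median 13524), and 5 of its 9 markers were called higher while HBA and HBB were called lower.

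On Day 240, CMPK2 (2.11, SE 0.37) and IFIT1 (1.56, SE 0.32) were higher in 6 of 6 animals (2 of 10 genes, 3.26% of all genes). CMPK2 had 11.1, 59.2 and 222.9 CPM and IFIT1 47.05, 112.2 and 263 CPM. Without B1503 both calls were lost, with values of 1.90 and 1.32, and IFIT1 also lost its call without B1003 (1.53). The erythroid sum ranged from 6579 to 50026 CPM on Day 240 (median 15547), and 6 of its 9 markers were called higher. On Day 270 it ranged from 4294 to 90668 CPM (median 15134), with 0 of the 9 called, and the highest sum was that of B2502. The part of red cell precursors in the late changes was not tested. On Day 270 no gene of the 10 passed with edgeR (0% of all genes higher), 2 had an unadjusted p under 0.05, DESeq2 called 2, and CMPK2 was again above control in 6 of 6 animals (1.94, SE 0.51). In 1 fit over all samples with the library series as a covariate, 8 of 10 genes were called higher on Day 270, with values of up to 3.12, against 15.1% of all genes. The animals differed on that day, and the median change over the 10 genes was 4.19 in B2502 and 2.22 in B1503 but between -0.92 and -0.41 in the other four. On Day 120, IFI27 was lower (log2 fold change -1.08, SE 0.34, 19.1% of all genes lower), with 11 of 12 animals below their control, and no gene was called higher (12.7% of all genes), although 3 had an unadjusted p under 0.05 and DESeq2 called 2 higher. On Day 150 no gene was called higher (12% of all genes) or lower (19.5%), and 2 had an unadjusted p under 0.05. There DESeq2 called 1 in each direction, and without the low library of B1502 edgeR called 1 higher (12.2% of all genes). No share of all genes is given for the DESeq2 and unadjusted p counts of Day 120, 150 and 270. Those counts cannot be told apart from a shift over all genes. With the library series as a covariate the IFI27 value of Day 120 was -0.10 and that of Day 210 was -0.88, and the calls of IFI6 (-0.55) and CMPK2 (0.79) on Day 180 and of IFIT5 on Day 210 (-0.996) were lost as well, while CMPK2 on Day 210 (1.62) and Day 240 (2.18) was still called. On Day 120, 150, 210 and 270 the median of all tested genes lay at -0.15, -0.17, -0.13 and -0.15, and under TMM scaling at -0.05, -0.09, -0.05 and -0.04, so changes on these days are relative to that shift.

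Within library series C, later days were set against Day 30 of the same animals. On Day 90 the same 3 genes as on Day 60, IFIT1, CMPK2 and RSAD2, were lower over 13 animals (3 of 10 genes, 2.52% of all genes), with log2 fold changes of -0.96, -1.12 and -1.09. On Day 120 none of the 10 was called lower over 10 animals (13.2% of all genes), 0 had an unadjusted p under 0.05 and DESeq2 called 0. These animals include B2507, whose Day 120 sample had the highest levels of all. Without it, an alternative chosen after the data were seen, CMPK2 (-1.14, SE 0.32), RSAD2 (-1.34, SE 0.36) and IFI27 (-1.199, SE 0.39) were called lower over 9 animals (3 of 10 genes, 8.9% of all genes), while the calls of Day 60 and Day 90 without it numbered 3 as before. On Day 150 IFI27 and IFI6 were lower (11.2% of all genes), on Day 180 IFIT5 and IFI6 (4.29%), and on Day 210 IFIT5 (7.08%). CMPK2 on Day 210 differed from Day 30 by 0.24 (SE 0.37), within the spread between animals.

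The 8 unscheduled draws, on 8 days from Day 71 to Day 172, were last draws of animals that had to be euthanized, per the methods, and each was compared with the animal's draw before it. All 10 genes had lower fitted levels, with log2 fold changes between -0.64 (IFIT2 and CMPK2) and -0.42 (IFI44L). None passed with edgeR (0% of all genes), 4 had an unadjusted p under 0.05, and DESeq2 called 0. The animals differed. B1504 had all 10 genes lower, with IFIT2 at 90.2 CPM after 364 CPM on Day 90, and B1506 had all 10 lower, with IFI44 at 30.2 CPM after 59.7 CPM. B2506 had 8 of 10 genes higher than at its draw before, with IFI27 at 4.25 CPM after 1.68 CPM.

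The lists for the rest of the interferon pathway were chosen with results of these data known. Interferon ligands were at or near the detection limit. Of 9 listed, 7 were in the count table and only IFNG was tested, with 0.853 CPM as its control median and a log2 fold change of 0.66 (SE 0.21) on Day 21, when it was called higher. IFNB1 had a median count of 1 and a highest count of 11, and IFNA2 had 0 counts in all samples. Of 11 receptors and proximal signaling genes, 0 were called higher and 2 lower on Day 21 (7.65% and 2.73% of all genes), with a median of 0.06. The kinase JAK2 had 0.32 and the receptor chain IFNAR2 0.24, neither past the fold limit, and the kinase JAK1 was lower (-0.63, SE 0.07), as was IFNLR1, a receptor for type III interferons (-0.61, SE 0.10), which is named after its value was seen. Of 6 inhibitors of the response, 1 was called higher on that day (7.65% of all genes). This was ISG15, a ubiquitin-like protein that is itself a target (1.25, SE 0.17), while USP18 had 0.24, SOCS1 0.18 and TRIM21 0.01.

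Of 35 other type I interferon targets tested, 6, 7, 7, 5 and 5 were called higher on Day 3, 6, 9, 15 and 21. Of all genes, 6.89%, 6.04%, 5.15%, 5.11% and 7.65% were called higher on these days. The medians of the 35 targets were 0.18, 0.35, 0.33, 0.31 and 0.26, and none was called lower. On Day 30 the count was 0 (4.57% of all genes), and on Day 40 it was 9 (4.07%). HERC5, the ligase that attaches ISG15, had the largest value on Day 21 (1.11, SE 0.19), before XAF1 (0.81, SE 0.11) and SAMD9 (0.80, SE 0.19). EPSTI1 (0.71) and OASL (0.68) were the other two called and are named after their values were seen. The editing enzyme ADAR had the smallest (-0.43, SE 0.08, not past the fold limit). Among 8 tested interferon gamma targets, 1 was higher on Day 21 (7.65% of all genes). This was the Fc receptor gene FCGR1A (1.01, SE 0.19), with GBP3 at 0.24, IDO1 at -0.09 and CIITA at -0.36. The median of these 8 genes was -0.21.

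The genes whose levels were most like the mean of the 10, by r over all samples with each animal's mean removed, were HERC5 (0.896), DDX60 (0.866), EPSTI1 (0.855), DDX58 (0.843), MX1 (0.835), ISG15 (0.820), XAF1 (0.820), OASL (0.810), HERC6 (0.792) and IFIH1 (0.783). DDX58 and IFIH1 are sensors of viral RNA, and MX1 is an antiviral GTPase. All 10 belong to the lists of other interferon targets and inhibitors, and 99% of tested genes had an r below 0.500.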

How the data were processed

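Per the labels and the paper's methods, the authors made stranded libraries after ribosomal RNA depletion, trimmed reads with cutadapt 2.10, aligned them to Mmul_10 with STAR 2.7.6a and counted RefSeq genes with Subread 2.0.1. The strand setting is not given in the sources used here. The deposited count table holds raw counts of 21070 genes, and the authors' second table holds normalized log2 values, used here only in an alternative. For normalization the paper's methods name upper quartile scaling and also describe a conditional quantile method that corrects for GC content.

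The 13751 genes that reached 3 counts in 80% or more of all samples entered the test in edgeR 4.0.16 in R 4.3.3 (quasi-likelihood test, upper quartile scaling, animal as block, Benjamini-Hochberg adjustment over all tested genes). Draws were paired by the animal named in the labels. Deviations of the same animal's draw and control had a median r of 0.34 to 0.55 on Day 3 to 40, and 14 to 23 of 24 draws correlated best with their own animal. Log2 CPM used a prior count of 2. For dose and sex, counts were summed per animal over Day 3 to 21. Genes named outside the 10 are, on the day with the largest median change of the 10, the 3 highest and the lowest of each interferon list, and the 10 most alike, with 1 gene that this rule names not reported here. The members and lists were chosen with earlier results of these data known. P-values of fits with 1 pair of values per animal measure the spread between animals. The joint fits over Day 3 to 40, which include the steps between neighbouring days, and the fit over all samples hold several draws of each animal. Their p-values measure the scatter between draws, with repeated draws of an animal treated as independent. Alternatives used DESeq2 1.42.0, limma 3.58.1, TMM scaling, no filter, no block, library series, single animals left out (groups of up to 12) and the erythroid covariate. The tests were tried on simulated data. Figures used matplotlib 3.10.9.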

Additional observations from a re-analysis of the deposited data

Results flagged for a closer look

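In 6 groups of 4 to 10 samples, each split by dose and day, the 10 genes gave 60 sets of values. In 8 of these sets, 1 sample lay apart from the others by Dixon's criterion. By chance the criterion flags about 1 in 20 sets of independent values. The 10 genes vary together, so that several can be flagged by 1 library, and the 8 sets cannot be compared with that rate. Of the 8 flagged values, 5 were low values of LD female B1502. On Day 150 it had 0 CPM of IFIT2 (next lowest 29.9), 0 CPM of IFI44 (next 4.56), 0 CPM of IFI27 (next 0.829) and 0.402 CPM of IFI6 (next 19.9), among 8 LD animals. This library had the fewest counts of all, and 0 counts there allow a level of up to 1.21 CPM (3 counts, counting error only). On Day 270 it had 1.12 CPM of IFI44 (next 4.93), among 5 LD animals. The other 3 were high values: 274.5 CPM of IFIT3 in B1506 on Day 150 (next 81.9), and in B1503 204.7 CPM of IFIT3 on Day 240 (next 74.7) and 91.3 CPM of IFI6 on Day 210 (next 35.03).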

How the results depend on the processing

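Counts below are of the 10 genes, and the causes of the shifts were not tested. Where no share of all genes is given, a shift of the 10 genes cannot be told apart from a shift over all genes. From Day 3 to Day 21 the counts against control moved by less than 1.5 times under TMM scaling, DESeq2, no filter, no block and the library series alternatives. With the erythroid covariate, added after the data were seen, the higher calls were 3, 0, 3, 0, 1 and 0 on Day 3, 6, 9, 15, 21 and 30 (4.65%, 0.524%, 13.7%, 0.727%, 1.87% and 3.43% of all genes), with medians of the 10 genes of 0.52, 0.99, 1.03, 0.32, 1.01 and 0.43, and the values of IFI27 (-0.14) and RSAD2 (-0.37) on Day 15 were reversed. Without the replicate block, so without pairing by animal, 7 genes were higher on Day 30 and 1 on Day 120, 1 was lower on Day 150, 0 were higher and 0 lower on Day 180, and 1 was lower on Day 210. Against Day 30 within series C, the unpaired fit called 1 lower on Day 60, 0 on Day 90, 1 higher on Day 120, and 1 and 0 lower on Day 150 and 180. Between neighbouring days it called 0 higher and 2 lower from Day 9 to 15, 0 lower from Day 21 to 30 and 0 higher from Day 30 to 40. In animals with control and draw in the same series, 5 were higher on Day 30 and 1 on Day 40 (4.6% and 3.45% of all genes). On Day 120, 2 were higher under TMM scaling, DESeq2 or no filter, and 1 with the deposited log2 values. On Day 150, DESeq2 called 1 higher and 1 lower and no filter 1 higher. On Day 270, DESeq2 called 2 higher and no filter 1. Against Day 30, TMM scaling gave 1 lower on Day 150 and 0 on Day 210, DESeq2 1, 4 and 2 on Day 150, 180 and 210, and no filter 4 on Day 180. With the library series as covariate, 4 were higher and 0 lower on Day 120 (15.4% and 20.7% of all genes), and 2 were higher on Day 150 (13.4%). In that fit 0 were higher and 0 lower on Day 180 (7.3% and 9.11%), and 0 were lower on Day 210 (19.4%). On Day 240 and 270 it called 4 and 8 higher (12.6% and 15.1%). Leaving out each animal gave 0 to 2 higher on Day 120, 0 to 1 higher and 0 to 2 lower on Day 150, 0 to 1 higher and 0 to 3 lower on Day 180, 1 to 4 lower on Day 210, 0 to 3 higher on Day 240 and 0 to 1 higher on Day 270. The counts moved without B1001, B1004, B1006 or B1505 on Day 120, B1502, B1503 or B1506 on Day 150, each of the 6 animals on Day 180, B1003, B1004, B1502, B1505 or B2502 on Day 210, B1003 or B1503 on Day 240, and B1003 on Day 270. Against Day 30 within series C, leaving out B2507, also added after the data were seen, gave 3 lower on Day 120. Some late calls of 6 animals rest on 1 animal, though those of CMPK2 and IFIT5 on Day 210 held without any 1 of them, and a lone HD animal allows no dose comparison after Day 120.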
